A study of Mus musculus with 9 samples.

Results

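The clustered protocadherins are cadherin-related adhesion proteins of neurons, encoded by 3 neighbouring gene clusters: Pcdha (alpha), Pcdhb (beta) and Pcdhg (gamma). Members are the genes whose symbols begin with Pcdha, Pcdhb or Pcdhg and that averaged at least 5 counts over the SAE-labelled and CTL-labelled libraries. Of 58 such symbols in the deposited transcript count table, 54 met this minimum: 11 in Pcdha, 21 in Pcdhb and 22 in Pcdhg. They were 54 of the 10077 genes of the series with a mean of at least 5 counts. The rule used levels over both groups together and no difference between them.

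The series holds 9 libraries of total RNA from hippocampus, with ribosomal RNA removed, from healthy adult specific-pathogen-free BALB/c mice. The 3 CCLF-labelled mice had cecal ligation and puncture (CLP, a surgical opening of the gut that causes sepsis) and flavonoids of Cuscuta chinensis Lam. at 200 mg/kg. The 3 SAE-labelled mice had CLP alone, and the 3 CTL-labelled mice had a sham operation. The sources used here give no age, no time from surgery to sampling and no schedule for the flavonoids.

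Each neuron switches on a small set of alternate alpha, beta and gamma isoforms, by a choice among promoters that each stand before a variable exon. Alpha and gamma variable exons are spliced to constant exons shared within their cluster, whereas each beta gene codes for its protein alone. The proteins pair side by side on the membrane and engage membranes that carry the same set, which lets branches of the same neuron recognise and avoid each other. The C-type isoforms, Pcdhac1, Pcdhac2, Pcdhgc3, Pcdhgc4 and Pcdhgc5, stand at the ends of the alpha and gamma clusters and are used more broadly than the alternate ones.

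The libraries held 4626519 to 4895474 counts, of which 11775 to 12172 fell on the members. Genes that inflammation raises went against the labels. Lcn2, a secreted protein that tissue makes in quantity during systemic inflammation, had 6791, 9635 and 4524 counts in CCLF-labelled libraries, 13, 14 and 6 in SAE-labelled ones and 13816, 14822 and 13246 in CTL-labelled ones. All 9 tested genes of a 14-gene inflammation list were lower in SAE-labelled libraries by edgeR's quasi-likelihood test. Groups are therefore called by their labels throughout, and every direction given here is that of the labels.

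The CCLF-labelled libraries stood apart in another way. Of 162 member values in these libraries, 158 (97.5%) lay inside the range of the other 6 libraries, against 60 (37%) for SAE-labelled and 72 (44.4%) for CTL-labelled libraries. Over all 10077 genes the shares were nearly the same: 97.3% for CCLF-labelled, 37.5% for SAE-labelled and 39.7% for CTL-labelled libraries. The shares of the labels are not independent, because a group lying between the others leaves their values at the outer ends. The variance of a member's scaled counts over its mean had a median of 0.213 in CCLF-labelled libraries, 1.05 in SAE-labelled and 1.08 in CTL-labelled ones. Counting error alone would put the average of this ratio at 1. With 3 libraries its median would be lower than that, so the medians compare the labels and are not read against 1. Pcdhgb1 had 176, 176 and 175 counts and Pcdha5 had 71, 70 and 71 counts in the CCLF-labelled libraries. Over all 10077 genes the medians were 0.369 for CCLF-labelled, 1.19 for SAE-labelled and 1.16 for CTL-labelled libraries, so the narrow spread was not limited to protocadherins. Its cause was not tested. SAE-labelled and CTL-labelled libraries were compared in a fit without the CCLF-labelled ones.

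**Figure D1:**
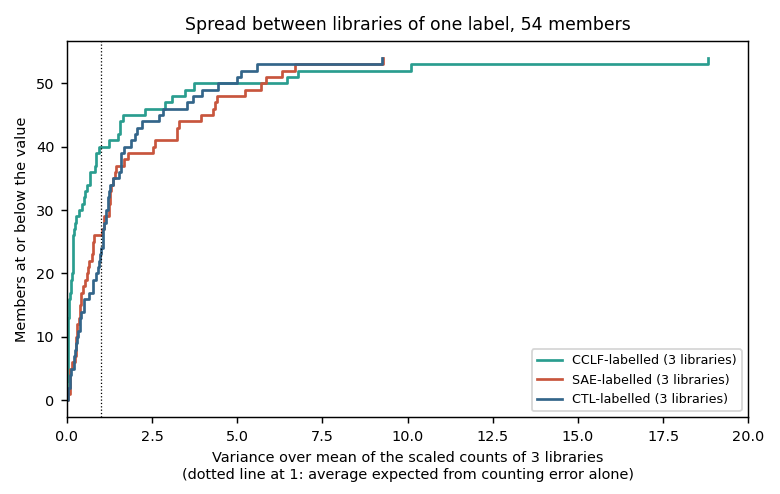
Number of the 54 members (vertical axis) whose variance over mean across the 3 libraries of a label is at or below the value on the horizontal axis, one line per label. The CCLF-labelled line climbs first, with a median of 0.213 against 1.05 for SAE-labelled and 1.08 for CTL-labelled libraries, although it also has the highest single values.

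The 4 symbols under the minimum were Pcdha4, Pcdha6, Pcdha7 and Pcdhb1. Pcdha4, Pcdha6 and Pcdha7 had 0 or 1 count in every library. They are also the alpha genes with which a separate read-through gene (Gm37013, Gm38666 or Gm38667) is annotated in RefSeq, and those genes had 0 or 1 count as well. How reads shared by several transcripts, such as reads of the shared constant exons, were assigned is not given in the sources used here. Pcdhb1 lay just under the minimum with a mean of 3.17 counts: 6, 3 and 8 counts in SAE-labelled and 0, 1 and 1 in CTL-labelled libraries. Pcdha8 lay just inside, with a mean of 7.0 counts: 8, 10 and 14 in SAE-labelled and 1, 4 and 5 in CTL-labelled libraries. Its CTL-labelled mean was under 5, so it became a member only through the SAE-labelled libraries, where it was higher.

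Between SAE-labelled and CTL-labelled hippocampus the pooled sum of all 54 members was nearly equal, while single isoforms differed in both directions. By cluster, the Pcdha sum was 13.6% and the Pcdhb sum 5.6% higher in SAE-labelled libraries, both without overlap. The Pcdhg sum, the largest, differed by -4.0% and overlapped. The members together had 2525 ± 35.4 CPM (counts scaled to the library's size) in SAE-labelled and 2530 ± 36.9 CPM in CTL-labelled libraries (SD, n = 3 each). Of the 54 members, 13 rose and 8 fell in SAE-labelled libraries by edgeR's quasi-likelihood test at an adjusted p under 0.05, or 38.9%. Of all tested genes 41.7% passed the same test, so in this fit the share among protocadherins was near that of the whole transcriptome. Their differences were also small: the median size of a member's log2 fold change was 0.29, against 0.40 over all tested genes. Only Pcdha8 and Pcdhb6 passed with more than a 2-fold difference, 3.7% of the members against 16.9% of all tested genes. Pcdha8 had met the minimum of 5 counts only through the SAE-labelled libraries. The libraries of both labels did not overlap in 19 members that were higher and 8 that were lower in SAE-labelled libraries. Over all tested genes 50.8% did not overlap, 25.9% higher and 24.9% lower. Without replicate 1 of the CTL-labelled libraries 7 members rose and 5 fell, and DESeq2 called the same numbers on all 6 libraries. Over all genes 3627 were called without that replicate and 3264 by DESeq2, against 4199 in the main fit. Member calls thus fell by a larger part than calls over all genes in both settings.

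Calls by cluster were as follows. In Pcdha, 7 of 11 members rose, Pcdha8 among them, and the median log2 fold change was 0.49. In Pcdhb, 5 of 21 rose and 3 fell, with a median of 0.27. In Pcdhg, 1 of 22 rose and 5 fell, with a median of -0.12. Over all tested genes 20.7% rose and 21% fell, and the median was 0.01. Whether the clusters differ from each other was not tested.

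**Figure D2:**
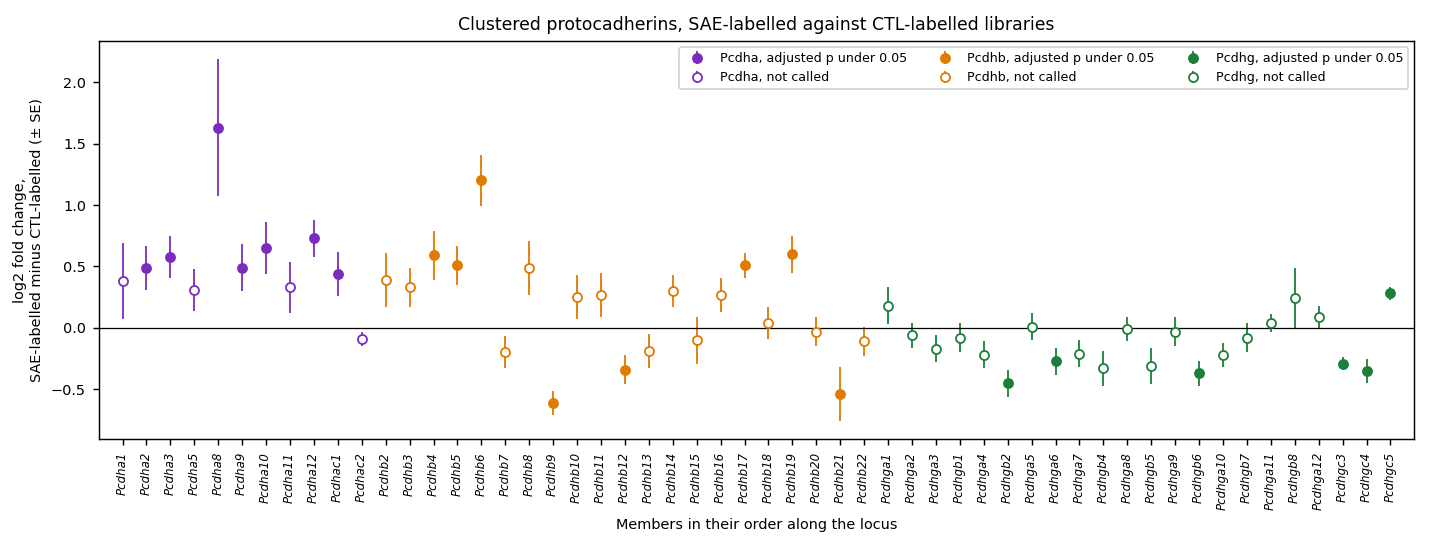
The log2 fold change of each member, SAE-labelled minus CTL-labelled (vertical axis, bar ± SE, n = 3 libraries each), in the order of the genes along the locus. Filled points have an adjusted p under 0.05: most Pcdha members lie above 0 (median 0.49), Pcdhb members lie on both sides (median 0.27) and most Pcdhg members lie below 0 (median -0.12).

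The alternate alpha isoforms, adhesion proteins that take part in the wiring of axons, were higher as a group in SAE-labelled hippocampus. Summed over the 9 alternate members, the CPM were 125, 124 and 143 in SAE-labelled libraries, against 84, 88.2 and 95.5 in CTL-labelled ones. The means were 131 ± 10.9 in SAE-labelled and 89.2 ± 5.83 in CTL-labelled libraries (SD, n = 3 each), a difference of 46.5%, and the libraries did not overlap. All 9 had positive log2 fold changes, 0.31 to 1.63. The highest was that of Pcdha8, which met the minimum only through the SAE-labelled libraries. Without Pcdha8 the range was 0.31 to 0.73, and the counts that follow include it. In 8 of the 9 the libraries of both labels did not overlap, where 25.9% of all tested genes were higher without overlap, and 6 of the 9 passed the test. In bulk tissue, a change in the number of cells that use an isoform and a change in RNA per cell cannot be told apart.

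Pcdha12 had 164, 131 and 181 counts in SAE-labelled libraries, against 90, 78 and 116 in CTL-labelled ones. Every SAE-labelled library was above every CTL-labelled one. Its log2 fold change was 0.73 ± 0.15 (SE, adjusted p = 0.000191, edgeR's quasi-likelihood test, adjusted by the Benjamini-Hochberg method over all tested genes, as are the adjusted p-values below). Pcdha3 had 76, 86 and 87 counts in SAE-labelled and 53, 60 and 52 in CTL-labelled libraries, again without overlap, with a log2 fold change of 0.58 ± 0.17 (adjusted p = 0.00667 by edgeR).

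The other alternate alpha calls rested on fewer counts or on single libraries. Pcdha10 averaged 11.8 ± 1.87 CPM in SAE-labelled and 7.45 ± 1.31 CPM in CTL-labelled libraries, a log2 fold change of 0.65 ± 0.21 (adjusted p = 0.0142 by edgeR). Pcdha2 averaged 15.2 ± 2.04 CPM in SAE-labelled and 10.8 ± 0.737 CPM in CTL-labelled libraries, and Pcdha9 17.3 ± 1.69 CPM in SAE-labelled and 12.3 ± 3.64 CPM in CTL-labelled ones. Both had log2 fold changes of 0.49, with adjusted p-values of 0.0312 for Pcdha2 and 0.0381 for Pcdha9 by edgeR. Pcdha8, at the lower limit of detection, had 8, 10 and 14 counts in SAE-labelled and 1, 4 and 5 in CTL-labelled libraries, a log2 fold change of 1.63 ± 0.56 (adjusted p = 0.0178 by edgeR). Pcdha1, Pcdha5 and Pcdha11 did not pass, with log2 fold changes of 0.38, 0.31 and 0.33.

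The C-type members of the alpha cluster did not share one pattern. Pcdhac1 had 66, 65 and 75 counts in SAE-labelled and 44, 54 and 52 in CTL-labelled libraries, without overlap, and its log2 fold change of 0.44 ± 0.18 passed narrowly (adjusted p = 0.0494 by edgeR). Leaving out any 1 of the 6 libraries put its adjusted p between 0.0625 and 0.146. Pcdhac2, the isoform needed for the tiling of serotonergic axons, had 782, 774 and 714 counts in SAE-labelled and 785, 816 and 790 in CTL-labelled libraries. It did not pass, with a log2 fold change of -0.09 ± 0.06 (adjusted p = 0.288 by edgeR). Pcdhac2 made up 54.3%, 54.6% and 48.1% of the Pcdha counts in SAE-labelled libraries, against 64.7%, 63% and 60.7% in CTL-labelled ones. The cluster as a whole summed to 304 ± 1.54 CPM in SAE-labelled and 268 ± 2.84 CPM in CTL-labelled libraries (SD, n = 3 each).

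The number of called alpha members depended on single libraries and on the tool. It was 2 without replicate 3 of the SAE-labelled libraries, 2 without replicate 1 of the CTL-labelled ones, 4 without replicate 2 of the CTL-labelled ones and 2 with DESeq2, against 7. Without replicate 3 of the SAE-labelled libraries the adjusted p was 0.0913 for Pcdha10, 0.157 for Pcdha2, 0.0823 for Pcdha8 and 0.0557 for Pcdha9, and without replicate 1 of the CTL-labelled ones it was 0.0515, 0.063, 0.0948 and 0.248 for the same genes by edgeR. Without replicate 2 of the CTL-labelled libraries it was 0.0666 for Pcdha10 and 0.0845 for Pcdha9, without their replicate 3 it was 0.0911 for Pcdha2, and without SAE-labelled replicate 1 it was 0.157 for Pcdha9. Pcdha3 and Pcdha12 passed under all 16 alternatives tried.

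**Figure D3:**
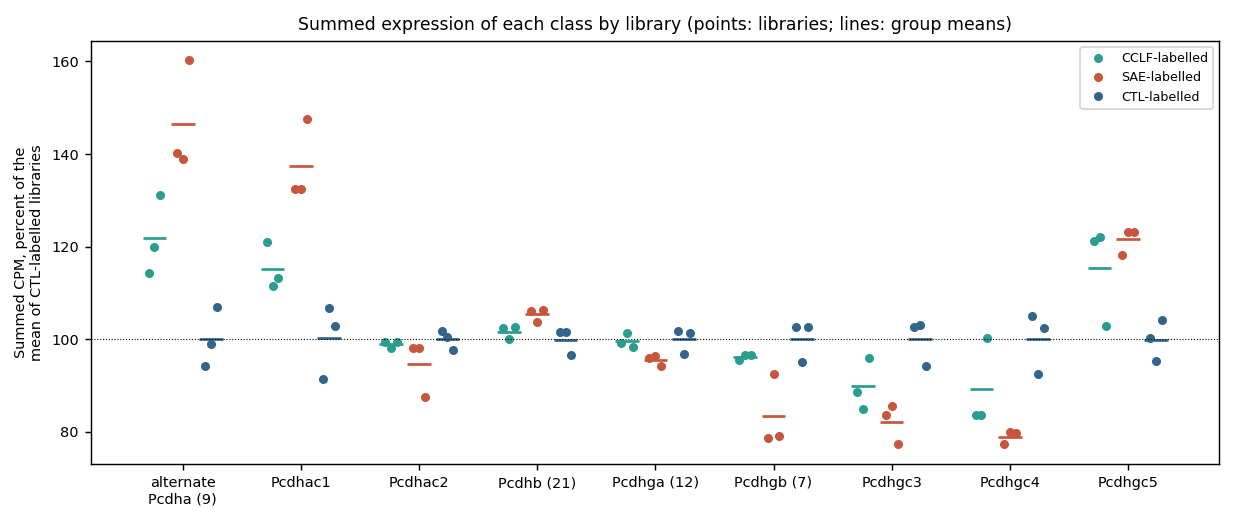
Summed CPM of each isoform class or C-type gene in each library, as a percentage of the mean of the CTL-labelled libraries (vertical axis), with lines at the group means (n = 3). The SAE-labelled libraries are highest for the alternate Pcdha genes (46.5% above the CTL-labelled mean) and lowest for Pcdhgc4 (-21.0%), while the Pcdhb sum lies 5.6% above that mean.

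The beta isoforms split. As single genes with no shared constant part, they bring different adhesive ends to the same neuron. Their sum was 527 ± 7.06 CPM in SAE-labelled and 499 ± 14.8 CPM in CTL-labelled libraries (SD, n = 3 each), a difference of 5.6%. The libraries of both labels did not overlap in this sum. Pcdhb4, Pcdhb5, Pcdhb6, Pcdhb17 and Pcdhb19 rose, and Pcdhb9, Pcdhb12 and Pcdhb21 fell.

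Pcdhb6 had 65, 60 and 59 counts in SAE-labelled libraries, against 29, 26 and 24 in CTL-labelled ones. The lowest SAE-labelled library had more than the highest CTL-labelled one, and the means were 12.9 ± 0.787 CPM in SAE-labelled and 5.57 ± 0.688 CPM in CTL-labelled libraries. The log2 fold change was 1.20 ± 0.21, or 2.30-fold (adjusted p = 2.91e-05 by edgeR). Pcdhb9 went the other way, with 199, 225 and 205 counts in SAE-labelled and 324, 314 and 312 in CTL-labelled libraries. The 2 sets of Pcdhb9 counts were far apart, and its log2 fold change was -0.61 ± 0.10 (adjusted p = 7.65e-06 by edgeR).

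Pcdhb17 had 256, 247 and 265 counts in SAE-labelled and 173, 183 and 179 in CTL-labelled libraries. Its replicates were tight and did not overlap, and the log2 fold change was 0.51 ± 0.10 (adjusted p = 0.000172 by edgeR). Pcdhb19 had 123, 131 and 163 counts in SAE-labelled and 98, 92 and 83 in CTL-labelled libraries, without overlap, with a log2 fold change of 0.60 ± 0.15 (adjusted p = 0.00132 by edgeR). Pcdhb6, Pcdhb9, Pcdhb17 and Pcdhb19 passed under all 16 alternatives.

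The other beta calls passed less firmly. Pcdhb5 averaged 23.4 ± 3.57 CPM in SAE-labelled and 16.3 ± 2.33 CPM in CTL-labelled libraries, a log2 fold change of 0.51 ± 0.16 (adjusted p = 0.0101 by edgeR), and Pcdhb4 averaged 12.8 ± 1.66 CPM in SAE-labelled and 8.46 ± 1.5 CPM in CTL-labelled ones, a log2 fold change of 0.59 ± 0.20 (adjusted p = 0.0207 by edgeR). Pcdhb12 and Pcdhb21 had log2 fold changes of -0.34 and -0.54 (adjusted p = 0.0224 and 0.0464 by edgeR). Pcdhb12 passed under 12 of 16 alternatives, with an adjusted p of up to 0.141, and Pcdhb21 under 7 of 16, with one of up to 0.163. Pcdhb5 did not pass without SAE-labelled replicate 2 or CTL-labelled replicate 1 (adjusted p = 0.0951 and 0.0633 by edgeR). Pcdhb4 did not pass without SAE-labelled replicates 1 or 2 or CTL-labelled replicate 3 (adjusted p = 0.0956, 0.0596 and 0.105 by edgeR). Without SAE-labelled replicate 2 the count of beta members that rose was 3, and without CTL-labelled replicate 1 the count that fell was 1. The Taf7 gene, a general transcription factor subunit lying between the beta and gamma clusters, had 123, 120 and 149 counts in SAE-labelled and 114, 138 and 105 in CTL-labelled libraries, which overlapped.

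**Figure D4:**
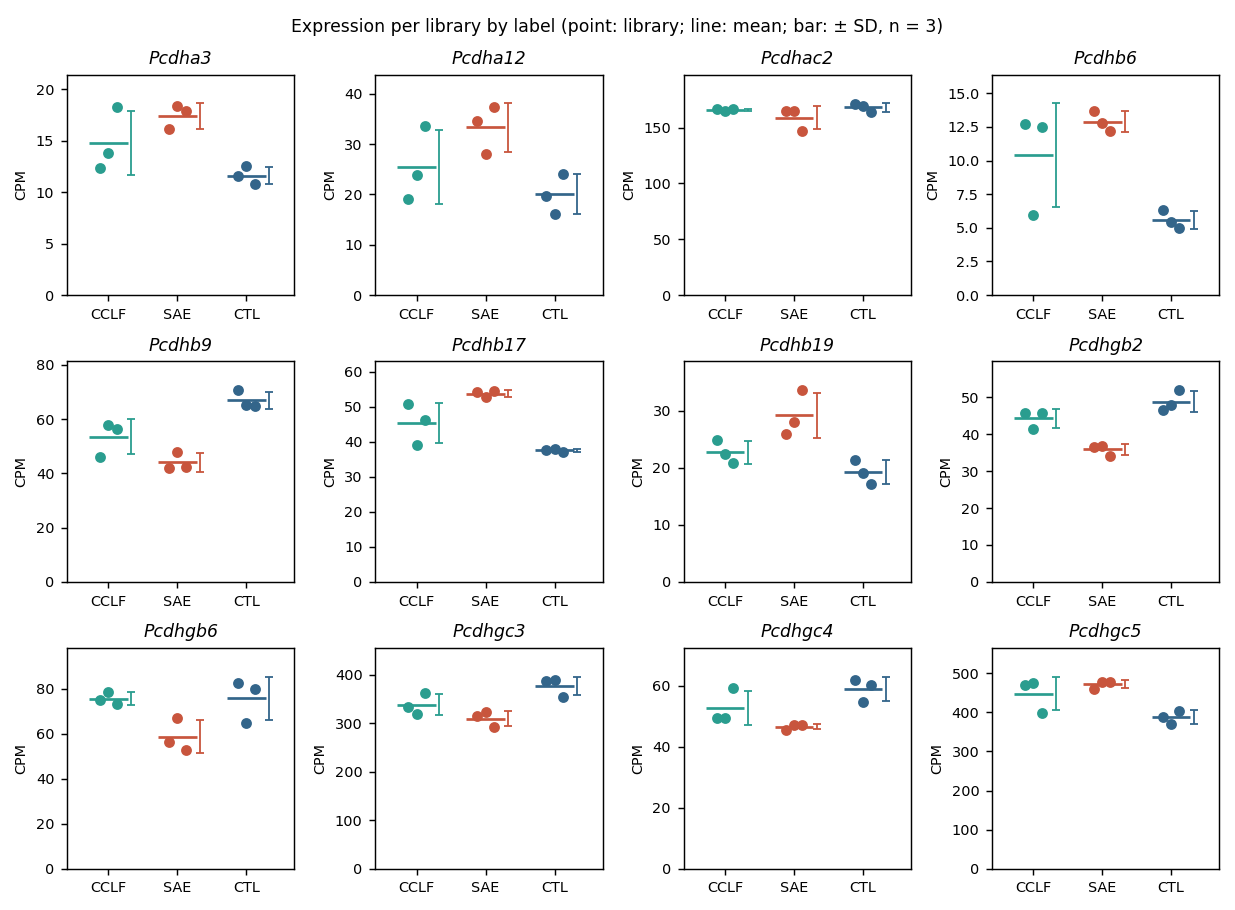
CPM of 12 members in each library (points), with the mean (line) and SD (bar) of the 3 libraries per label. SAE-labelled and CTL-labelled points are apart for Pcdhb6 (12.9 ± 0.787 against 5.57 ± 0.688 CPM) and the 3 gamma C-type genes, overlap for Pcdhgb6 and Pcdhac2, and the CCLF-labelled Pcdhb6 points are split.

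In the gamma cluster, which is needed for the self-avoidance of dendrites and for the survival of many interneurons, the C-type genes moved against each other. Pcdhgc5 rose, whereas Pcdhgc3 and Pcdhgc4 fell, and the sum of all 22 gamma members overlapped between the labels. That sum was 1694 ± 43.9 CPM in SAE-labelled and 1764 ± 40 CPM in CTL-labelled libraries (SD, n = 3 each).

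Pcdhgc5, an isoform that appears late in brain development and binds GABA-A receptors, had 2173, 2238 and 2320 counts in SAE-labelled libraries, against 1783, 1782 and 1945 in CTL-labelled ones. Every SAE-labelled library was higher. The means were 472 ± 11 CPM in SAE-labelled and 388 ± 17 CPM in CTL-labelled libraries, with a log2 fold change of 0.28 ± 0.05 (adjusted p = 1.54e-05 by edgeR). Pcdhgc3, which promotes the branching of dendrites, had 1492, 1511 and 1416 counts in SAE-labelled and 1776, 1872 and 1712 in CTL-labelled libraries. These did not overlap either, and the log2 fold change was -0.29 ± 0.05 (adjusted p = 3.54e-05 by edgeR). Pcdhgc4, the gamma isoform needed for neuronal survival, had 216, 221 and 228 counts in SAE-labelled and 284, 263 and 291 in CTL-labelled libraries, a log2 fold change of -0.35 ± 0.10 (adjusted p = 0.00503 by edgeR).

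The balance of Pcdhgc5 to Pcdhgc3 differed between the labels. The ratio of Pcdhgc5 to Pcdhgc3 counts was 1.46, 1.48 and 1.64 in SAE-labelled and 1, 0.952 and 1.14 in CTL-labelled libraries. Pcdhgc5 made up 56%, 56.4% and 58.5% of the counts of the 3 genes in SAE-labelled libraries, against 46.4%, 45.5% and 49.3% in CTL-labelled ones. The 5 C-type genes of both clusters summed to 1002 ± 23.8 CPM in SAE-labelled and 1003 ± 14.5 CPM in CTL-labelled libraries (SD, n = 3 each). Counts and CPM are not corrected for transcript length, so these shares compare libraries and do not rank the genes by copy number. Gamma transcripts also share constant exons, and how shared reads were assigned is not given. Opposite differences between these isoforms may therefore not be independent.

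Among the alternate gamma genes 3 of 19 fell, against 21% of all tested genes. The 7 Pcdhgb genes summed to 210, 247 and 211 CPM in SAE-labelled and 274, 254 and 274 CPM in CTL-labelled libraries, without overlap, a log2 ratio of -0.26. Pcdhgb2 had 173, 173 and 166 counts in SAE-labelled and 213, 231 and 250 in CTL-labelled libraries, without overlap, and a log2 fold change of -0.45 ± 0.11 (adjusted p = 0.00118 by edgeR). Pcdhgb6 had 267, 314 and 257 counts in SAE-labelled and 378, 313 and 385 in CTL-labelled libraries. Replicate 2 of both labels lay at nearly the same Pcdhgb6 count, so the groups overlapped, and the log2 fold change was -0.37 ± 0.10 (adjusted p = 0.00409 by edgeR). It was the only called member of 21 whose groups overlapped.

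The 12 Pcdhga genes differed least. They summed to 643 ± 7.99 CPM in SAE-labelled and 673 ± 18.1 CPM in CTL-labelled libraries (SD, n = 3 each), with a median log2 fold change of -0.05. The SAE-labelled sums were lower without overlap, at 646, 649 and 634 CPM against 685, 652 and 682 CPM. Pcdhga6 alone passed, with 250, 180 and 243 counts in SAE-labelled and 254, 277 and 273 in CTL-labelled libraries and a log2 fold change of -0.27 ± 0.11 (adjusted p = 0.0457 by edgeR). That call rested on the low replicate 2 of the SAE-labelled libraries, without which the log2 fold change was -0.14 (adjusted p = 0.334 by edgeR), and it also missed the threshold without any 1 of the CTL-labelled libraries (adjusted p 0.0724 to 0.102 by edgeR).

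The CCLF-labelled libraries differed little from either other label in these genes. Against SAE-labelled libraries 2 members were higher and none lower by edgeR, 3.7% against a background of 9.11% of all tested genes in either direction (5.94% higher and 3.17% lower). The groups did not overlap in 8 members that were higher and 7 that were lower in CCLF-labelled libraries, where 31.1% of all tested genes did not overlap (17.4% higher and 13.6% lower). The count at an unadjusted p under 0.05 was 5 higher and 3 lower, and DESeq2 and limma-voom each called 1 higher and none lower. The shares of all tested genes at these settings are not given here, so these counts are not set against a background. Pcdhgb6 had 354, 371 and 345 counts in CCLF-labelled and 267, 314 and 257 in SAE-labelled libraries, which did not overlap, with a log2 fold change of 0.36 ± 0.10 (adjusted p = 0.042 by edgeR). Pcdhgb2 had 216, 195 and 215 counts in CCLF-labelled and 173, 173 and 166 in SAE-labelled libraries, also apart, with a log2 fold change of 0.30 ± 0.09 (adjusted p = 0.0487 by edgeR). Leaving out any 1 library other than SAE-labelled replicate 2 left 0 or 1 member higher, 1 member was lower without CCLF-labelled replicate 3, and a fit of only the 6 libraries compared called none.

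Against CTL-labelled libraries 2 members of the CCLF-labelled libraries were higher and none lower by edgeR, with a background of 8.51% of all tested genes in either direction (5.15% higher and 3.36% lower). The groups did not overlap in 7 members that were higher and 3 that were lower in CCLF-labelled libraries, where 30% of all tested genes did not overlap (16.4% higher and 13.6% lower). At an unadjusted p under 0.05 the counts were 6 higher and 2 lower, and DESeq2 and limma-voom called none. These counts too have no share of all tested genes beside them. Pcdhb6 had 60, 28 and 59 counts in CCLF-labelled and 29, 26 and 24 in CTL-labelled libraries. Replicates 1 and 3 of the CCLF-labelled libraries lay near the SAE-labelled level of this gene and replicate 2 near the CTL-labelled one, and the log2 fold change was 0.90 ± 0.26 (adjusted p = 0.0457 by edgeR). Pcdhgc5 had 2214, 2236 and 1880 counts in CCLF-labelled and 1783, 1782 and 1945 in CTL-labelled libraries, overlapping, with a log2 fold change of 0.21 ± 0.06 (adjusted p = 0.0482 by edgeR). Leaving out any 1 library other than CCLF-labelled replicate 2 left 0 or 1 member higher, 1 member was lower without CCLF-labelled replicates 2 or 3, and a fit of only the 6 libraries compared called none higher. The alternate alpha sum was 102, 107 and 117 CPM in CCLF-labelled libraries, and none of its genes passed in either comparison by edgeR, DESeq2 or limma-voom. At an unadjusted p under 0.05, 1 Pcdha member was lower in CCLF-labelled than in SAE-labelled libraries and 1 was higher than in CTL-labelled ones. The background at that threshold is again not given.

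Some genes that act with the clustered protocadherins passed the test between SAE-labelled and CTL-labelled hippocampus. Of all tested genes 20.7% rose and 21% fell, or 41.7% in either direction. Whether these short lists differ from those shares was not tested. Of 20 listed regulators of the clusters, 10 were tested, of which 5 fell, none rose and the other 5 did not pass. The median log2 fold change over the list was -0.37. Dnmt3a, an enzyme that places new DNA methylation, averaged 26.8 ± 1.69 CPM in SAE-labelled and 56.2 ± 2.94 CPM in CTL-labelled libraries, a log2 fold change of -1.07 ± 0.11 (adjusted p = 2.71e-09 by edgeR). Trim28, a corepressor that recruits heterochromatin enzymes, had a log2 fold change of -0.39 ± 0.04 (adjusted p = 4.9e-09 by edgeR). Smc3, a subunit of the cohesin ring that holds promoters to distant enhancers, had -0.23 ± 0.05, and Rest, a repressor of neuronal genes, had -0.58 ± 0.17 on the same scale (adjusted p = 0.000608 and 0.00787 by edgeR). The values of Dnmt3a sum 9 transcripts and those of Rest 2, and their single transcripts are not given here.

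Of 23 listed binding and signalling partners, 11 were tested, of which 4 rose, none fell and the other 7 did not pass. Of all tested genes 20.7% rose and 21% fell. The median log2 fold change over the list was 0.18. Marcks, a membrane-bound actin regulator that gamma protocadherin signalling acts on through protein kinase C, averaged 484 ± 3.76 CPM in SAE-labelled and 378 ± 18.4 CPM in CTL-labelled libraries, a log2 fold change of 0.35 ± 0.05 (adjusted p = 2.9e-07 by edgeR). Prkca, a protein kinase C, rose by 0.23 ± 0.04 on the log2 scale (adjusted p = 1.45e-05 by edgeR). Brk1, a subunit of the WAVE actin complex, rose by 0.13 ± 0.05 (adjusted p = 0.0284 by edgeR).

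The nonclustered protocadherins, encoded elsewhere by single genes, had 7 of 12 listed members tested, of which 4 rose and 1 fell, against 20.7% that rose and 21% that fell of all tested genes, with a median log2 fold change of 0.50. Pcdh9 had 708, 725 and 884 counts in SAE-labelled and 372, 424 and 473 in CTL-labelled libraries, without overlap, a log2 fold change of 0.86 ± 0.08 (adjusted p = 1.43e-09 by edgeR). Pcdh10 rose by 0.48 ± 0.08 and Pcdh12, a protocadherin of endothelium, by 1.62 ± 0.52, while Pcdh7 fell by 2.05 on the log2 scale (adjusted p = 1.19e-05, 0.0125 and 6.9e-05 by edgeR). Among 23 listed classical and large cadherins, 11 were tested and 4 rose (Cdh1, Cdh10, Cdh20 and Clstn3), against 20.7% of all tested genes, with a median log2 fold change of 0.28.

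Cell type markers moved between the same labels, where 20.7% of all tested genes rose and 21% fell. Of 15 neuronal markers 11 were tested and 7 rose, with summed CPM of 12492 to 12849 in SAE-labelled and 10692 to 11090 in CTL-labelled libraries. Of 13 markers of oligodendrocytes and their precursors 12 were tested and 9 rose, with sums of 1991 to 2191 CPM in SAE-labelled and 1148 to 1346 CPM in CTL-labelled libraries. The 12 astrocyte markers, of which 11 were tested, split into 4 that rose and 6 that fell. Their sums were nevertheless higher without overlap, at 9008 to 9216 CPM in SAE-labelled and 8245 to 8754 CPM in CTL-labelled libraries. Of 11 microglial markers 8 were tested, of which 6 rose and 1 fell, and of 11 markers of endothelium and pericytes 5 were tested, of which 3 rose and 1 fell. The microglial sums overlapped, at 1007 to 1095 CPM in SAE-labelled and 809 to 1134 CPM in CTL-labelled libraries. Those of endothelium and pericytes did not, at 897 to 1007 CPM in SAE-labelled and 605 to 644 CPM in CTL-labelled libraries. Of 10 markers of granule cells and hippocampal fields 7 were tested and 2 rose (Dsp and Neurod1), while the summed levels overlapped, at 1759 to 1900 CPM in SAE-labelled and 1799 to 1906 CPM in CTL-labelled libraries. Of 10 choroid plexus markers 6 were tested and 1 rose, with sums of 767 to 1530 CPM in SAE-labelled and 564 to 892 CPM in CTL-labelled libraries, and of 10 meningeal markers 9 were tested, of which 4 rose and 1 fell. The meningeal sums overlapped, at 231 to 404 CPM in SAE-labelled and 251 to 292 CPM in CTL-labelled libraries. Of 5 red blood cell genes 4 were tested and 2 fell, with sums of 457 to 564 CPM in SAE-labelled and 581 to 602 CPM in CTL-labelled libraries. The neuronal markers Map2 and Syt1 averaged under 1 count, although the other neuronal markers were plentiful. The part of these shifts in the protocadherin differences was not tested.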

How the data were processed

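The authors deposited whole-number counts per RefSeq transcript for 9 libraries. Per the submitters' processing notes, fastp and Salmon were used. The sources used here give no versions, index, genome build or handling of shared reads. A RefSeq gene table (GRCm38.p6), used for names and gene order only, named all 120312 rows, which were summed to 38911 genes. Each of the 54 members has 1 transcript row.

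Genes with a mean of at least 5 counts over SAE-labelled and CTL-labelled libraries were tested with edgeR 4.0.16 (R 4.3.3), with TMM scaling, robust quasi-likelihood fits and Benjamini-Hochberg adjustment over all 10077 genes. Calls are at an adjusted p under 0.05. SAE-labelled and CTL-labelled libraries were fitted alone, and comparisons of CCLF-labelled libraries used all 9, sharing one estimate of the spread. The SE is the size of the log2 fold change over the square root of F, and CPM values carry the TMM factors. Precision at this depth is limited by counting error where a gene has few counts. Each group is 3 mice, per the series design. Replicate numbers did not pair libraries.

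Members and gene lists were chosen with earlier results of these data known, so counts over them are descriptions. Named were, per cluster, up to 6 called members with the smallest p, the member with the most counts and all C-type members, the symbols nearest the minimum of 5 counts, up to 4 called genes per pathway list, and Lcn2. The values of 1 called gene of the partner list are not reported here. Other genes, such as Pcdhgb1, Pcdha5, Pcdhb12 and Pcdhb21, were named after their values were seen. Alternatives were DESeq2 1.42.0 size factors and Wald test, limma-voom (limma 3.58.1), 3 other filters, a replicate block, genes with 1 transcript, transcript rows, other sets of libraries and each library left out. No sequences were reported.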

Additional observations from a re-analysis of the deposited data

How the results depend on the processing

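For SAE-labelled against CTL-labelled libraries, all genes called fell to 2732 when only genes with 1 transcript were tested, which leaves fewer genes, against 4199. With the DESeq2 Wald test 7 members rose and 5 fell, with 2 Pcdha members higher and 1 Pcdhb member lower, against 13, 8, 7 and 3. All genes called were 3264 with that test and 3627 to 4006 in the fits that left out 1 library. With each library left out in turn, 7 to 12 members rose and 5 to 9 fell, 2 to 6 Pcdha members and 3 to 7 Pcdhb members rose, and 1 to 2 Pcdhb members fell. A fit of all 9 libraries called 8 Pcdhb members higher, against 5. The log2 ratio of summed Pcdha CPM was 0.17 with DESeq2 size factors and 0.21 with raw library totals, against 0.18. Members higher in CCLF-labelled than in SAE-labelled libraries, 2 in number, became 1 with the DESeq2 Wald test, limma-voom or transcript rows, 4 with no filter, and 0 with genes of 1 transcript or only the 6 libraries compared. Left-out libraries gave 0 to 2 higher and 0 to 1 lower. Members higher in CCLF-labelled than in CTL-labelled libraries, also 2, became 1 with DESeq2 size factors, filterByExpr or 1 CPM in 3 libraries, and 0 with the DESeq2 Wald test, limma-voom, genes of 1 transcript, transcript rows or only the 6 libraries compared. Left-out libraries gave 0 to 2 higher and 0 to 1 lower, and filterByExpr or no filter gave 1 lower. The cause of these shifts was not tested. Same-numbered SAE-labelled and CTL-labelled libraries did not deviate together (correlations 0.0181, -0.0259 and 0.0145), so the replicate block has no basis in the design. With the replicate block 12 members were higher and 7 lower in SAE-labelled against CTL-labelled libraries, 0 were higher in CCLF-labelled against SAE-labelled and 1 in CCLF-labelled against CTL-labelled ones. Of 319 values of the 20 members named by rule under the alternatives, 276 stayed on the same side of the threshold and 43 no longer passed, and none changed sign. Members named after their values were seen are not among the 20. Of these, Pcdhb12 passed under 12 and Pcdhb21 under 7 of 16 alternatives. Members with few counts, such as Pcdha8, could show only large differences at this depth.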
